A study of Homo sapiens with 5 samples.

Results

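Acetylated H3K27 (H3K27ac) and monomethylated H3K4 (H3K4me1) were mapped by ChIP-seq in VCaP, an androgen-responsive human prostate cancer line, and the regions described here are wide H3K27ac regions that carry H3K4me1 from side to side. Peaks of both H3K27ac libraries were merged where they overlapped, and so were peaks of both H3K4me1 libraries. A merged region was kept if it held a peak of each library of its mark. A kept H3K27ac region was a member if it was at least 1500 bp wide and kept H3K4me1 regions held its middle base and the bases at 0.75 of the distance from the middle to each end. On chromosomes 1 to 22 and X, 5783 regions met this rule. They made up 12.3% of 47128 kept H3K27ac regions and 29.8% (exact 95% interval 29.2 to 30.5%, counting error only) of the 19386 wide ones. The groups are H3K27ac immunoprecipitates (2 libraries), H3K4me1 immunoprecipitates (2 libraries) and input chromatin (1 library, not analysed as a sample). All came from this line grown in medium with serum, and the labels name no treatment. The labels do not say if replicates are separate cultures, so any p-value measures only how these libraries varied, which may be technical.

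H3K4me1 is placed on nucleosomes of enhancers, whether these are active or only primed, and on the shoulders of promoters. H3K27ac is placed by the acetyltransferases p300 and CBP on nucleosomes of active enhancers and active promoters. At promoters H3K4me1 is usually depleted over the start site, where H3K4 is trimethylated instead, and at enhancers both marks usually surround a short stretch cleared of nucleosomes where transcription factors bind. Wide acetylated regions can thus be grouped by where H3K4me1 lies along them, which is what the rule does. Because the rule used the positions of all 4 peak lists, the shape itself is a description here and was not tested.

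The peak lists hold positions only. H3K27ac had 54763 peaks in replicate 1 and 64845 in replicate 2, while H3K4me1 had 118231 in replicate 1 and 125320 in replicate 2. Read depth is unknown. H3K4me1 replicate 1 had the shorter peaks, with 5.61% of them at least 1500 bp wide against 14.9% in replicate 2.

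Every member had peaks of all 4 libraries, but the libraries covered it to different degrees. H3K4me1 covered a median of 78.3% of a member's length in replicate 1 and 95.8% in replicate 2 (mean of libraries 87.0%, SD 12.4, n = 2). H3K27ac covered a median of 98.1% in replicate 1 and 89.5% in replicate 2 (93.8%, SD 6.09, n = 2). All 3 tested bases lay in a peak of H3K4me1 replicate 1 in 3144 members (54.4%) and in a peak of replicate 2 in 5425 (93.8%). In 2909 members (50.3%) both H3K4me1 libraries held all 3 bases, and in 2060 (35.6%) all 4 libraries did. Only 123 members (2.13%) reached 3 bases through a patchwork in which neither H3K4me1 library held all of them.

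Applied to single libraries, the rule gave fewer regions. H3K27ac replicate 1 yielded 2957 with H3K4me1 replicate 1 and 5180 with replicate 2, and H3K27ac replicate 2 yielded 2482 and 4075. As shares of the wide H3K27ac peaks these lay between 16.3 and 28.6%, with a mean of 22.1% (SD 6.62, n = 4 pairings). Each library enters 2 of the 4 pairings, so the SD does not rest on 4 independent values. The choice of H3K4me1 library moved the share far more than the choice of H3K27ac library. Kept H3K27ac regions set against H3K4me1 replicate 1 alone gave 3174 members, a change of more than 1.5 times, and against replicate 2 alone 5595.

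**Figure D1:**
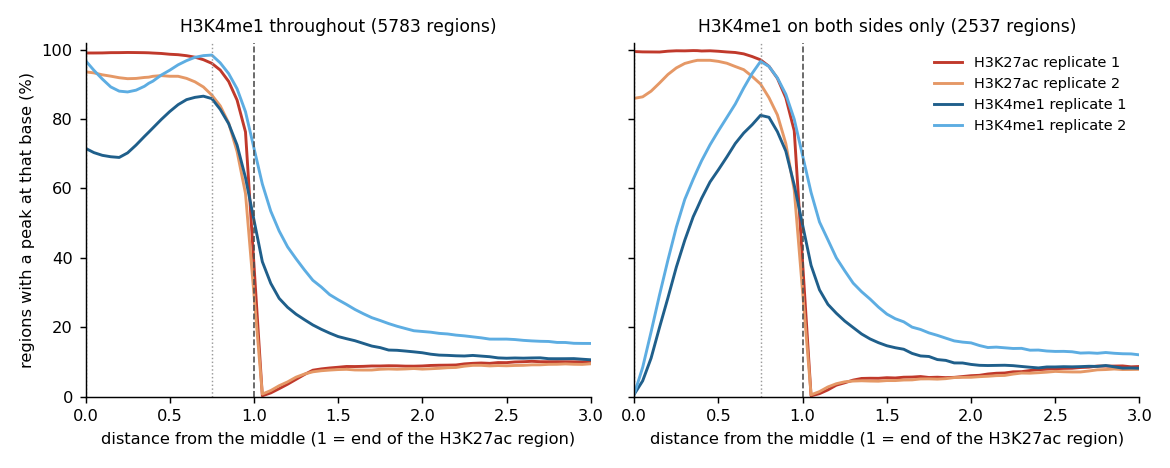
Percentage of wide H3K27ac regions with a peak of each library at a base, by distance from the middle (1 marks the end of the region, left and right sides averaged), for members on the left and for regions with H3K4me1 on both sides but not in the middle on the right. The dotted line marks 0.75, which the rule used together with the middle, and the dashed line the end of the region. In members H3K4me1 replicate 1 falls to 70.3% at 0.25 and reaches 85.9% at 0.75.

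Between the bases that the rule fixed, H3K4me1 was thinner near the middle of members. At 0.25 of the way to the end it was present in 70.3% of members in replicate 1 and 87.8% in replicate 2. At 0.5 of the way the values were 82.2 and 94.1%, and at 0.75 they were 85.9 and 98.4%. At the middle base itself, replicate 1 held 71.6% of members and replicate 2 held 96.8%. The rule asked for H3K4me1 at the middle and at 0.75, and among the bases between them both libraries were less often covered at 0.25 than at 0.5. H3K27ac had no such shape in replicate 1, with 99.0% at the middle and 98.7% at 0.5. In replicate 2 it was present at 93.6, 91.6 and 92.3% at the middle, 0.25 and 0.5.

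Among the classes profiled here, the 2537 wide regions with H3K4me1 on both sides differ from members only at the middle of the 3 tested bases. Their H3K4me1 at 0.25 was 37.4% in replicate 1 and 48.9% in replicate 2, values that the rule largely sets. Their H3K27ac in replicate 2 was 86.0% at the middle and 96.6% at 0.5, where members had 93.6% at the middle and 92.3% at 0.5. In replicate 1 it was 99.0% at the middle of members and 99.4% at the middle of the other class, so the lower value rests on replicate 2.

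Members ran from 1500 to 23240 bp, with a median of 2278 bp and 90% of them between 1558 and 5339.6 bp. The median was 2466 bp for regions with H3K4me1 on both sides, 2467 bp for those with it on 1 side and 2219 bp for those with it at none of the 3 bases. By library, the widest H3K27ac peak inside a member had a median of 2159 bp in replicate 1 and 1824 bp in replicate 2, against 2348 and 2058 bp in regions with H3K4me1 on both sides. The difference had the same direction in both libraries and was smaller than the gap between them. At the limit, 5 members were exactly 1500 bp wide, and 5 regions of the same shape were excluded at 1499 bp. The 248 members within 50 bp above the limit had median H3K4me1 coverages of 80.9% in replicate 1 and 100% in replicate 2, and the 274 regions within 50 bp below it had 80.1% and 100%. Under the limit, 49.3% of 27742 narrower H3K27ac regions had H3K4me1 at all 3 bases.

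Wider members were more often assembled from several H3K4me1 regions. The share of wide regions that were members hardly changed with width, from 32.6% at 1500 to 2000 bp, through 28.0% at 2000 to 3000 bp and 28.3% at 3000 to 5000 bp, to 32.3% at 5000 bp or more. Over the same classes, the share of members whose 3 bases lay in 1 H3K4me1 region was 86.3, 69.0, 44.3 and 23.7%. The median H3K4me1 coverage was 100, 98.4, 92.0 and 89.9%. The number of H3K4me1 replicate 1 peaks per member was 1.65, 1.94, 2.44 and 3.45 on average. In all, 3875 members (67.0%) had their 3 bases in 1 H3K4me1 region and 1908 (33.0%) in 2 or more.

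Kept H3K4me1 regions ran past most member ends and stopped short of others. A single H3K4me1 region extended over the whole of 2491 members (43.1%), and different H3K4me1 regions covered the ends of a further 992 (17.2%). H3K4me1 reached 1 end only in 1835 members (31.7%) and neither end in 465 (8.04%). Of the 11566 ends, 8801 (76.1%) lay under H3K4me1, which continued past them by a median of 307 bp (quartiles 118 and 651 bp). It ran more than 1000 bp past the end at 1213 of these ends (13.8%). Outer peak ends of H3K27ac replicates 1 and 2 differed by a median of 103 bp and those of H3K4me1 replicates 1 and 2 by 163 bp. These replicate differences are over all ends, while the overhang is over covered ends only, so the values are not directly comparable. Most members (5165, 89.3%) were the only H3K27ac region on the H3K4me1 region at their middle, and 618 (10.7%) shared it with 1 or more others, up to 5 in all.

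Breaks between neighbouring peaks were common inside members. Each list has its own smallest break, 192 bp in H3K4me1 replicate 1, 233 bp in H3K4me1 replicate 2, 222 bp in H3K27ac replicate 1 and 173 bp in H3K27ac replicate 2. H3K4me1 replicate 1 was broken in 4334 members (74.9%) and H3K4me1 replicate 2 in 2060 (35.6%), with median breaks of 352 and 349 bp. H3K27ac was broken in 295 members (5.10%) in replicate 1 and in 2144 (37.1%) in replicate 2, with median breaks of 276 and 240 bp. Regions made of several H3K27ac peaks were 3.83% of all wide regions in replicate 1 and 29.3% in replicate 2. Breaks in H3K4me1 were of similar length in both libraries, and they differed in number.

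The 2 H3K4me1 libraries broke at the same places. Of 2400 breaks of H3K4me1 replicate 2 inside members, 2096 (87.3%) had their middle in a break of replicate 1, although breaks of replicate 1 took up 16.6% of the members' summed length. At the mirror-image base of the same member, equally far from its middle on the other side, the share was 19.7%. Replicate 1 had more breaks, and of its 6007, 1897 (31.6%) had their middle in a break of replicate 2, against 6.26% at the mirror-image base. In replicate 1, 44.1% of breaks were centred within 0.25 of the way from the middle to the end and 35.2% between 0.25 and 0.5. In replicate 2 these shares were 40.9 and 45.5%.

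Breaks of H3K27ac tended to fall in breaks of H3K4me1. Of 2549 breaks of H3K27ac replicate 2, 1455 (57.1%) had their middle in a break of H3K4me1 replicate 1 and 647 (25.4%) in one of replicate 2. The mirror-image bases gave 21.2 and 5.57%, and the breaks took up 16.6 and 6.34% of the members' length. H3K27ac replicate 1 had only 299 breaks, of which 35.5% lay in breaks of H3K4me1 replicate 1 and 10.7% in those of replicate 2, against 21.1 and 5.35% at the mirror-image bases. All 4 pairings of libraries had the higher value at the break itself. Breaks shared by both H3K27ac libraries cannot occur, because a merged region ends at them. In regions with H3K4me1 on both sides, breaks of H3K27ac replicate 2 lay in breaks of H3K4me1 replicates 1 and 2 in 77.3 and 69.7%, against 57.1 and 45.9% at the mirror-image bases. There the rule itself places a break at the middle.

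**Figure D2:**
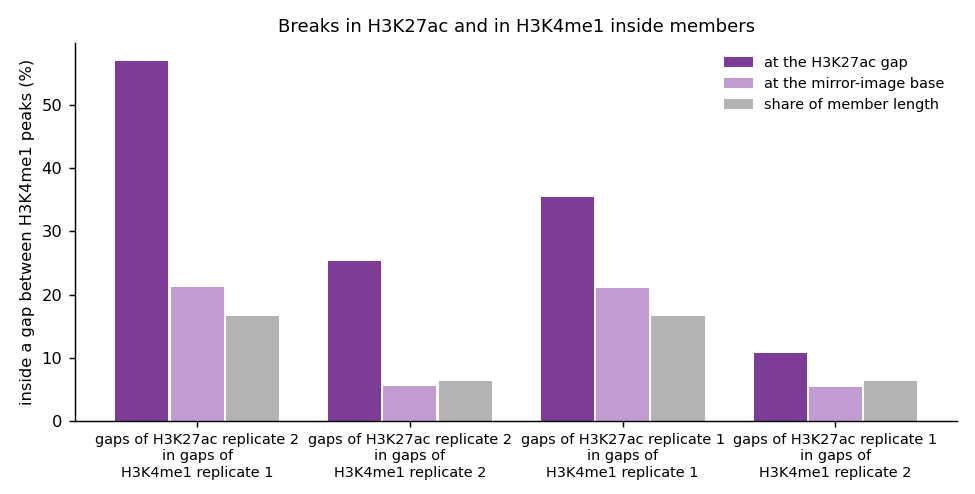
Percentage of breaks between H3K27ac peaks inside members whose middle lay in a break between H3K4me1 peaks (dark bars), with the value at the mirror-image base (light bars) and the share of member length taken up by H3K4me1 breaks (grey), for the 4 pairings of libraries. The dark bar is the tallest in each pairing, from 57.1% down to 10.7%.

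The widest member lay on chromosome 15 from 99328171 to 99351410 in build hg19 (23240 bp). H3K27ac covered 97.1 and 98.3% of it in replicates 1 and 2, and H3K4me1 84.4 and 94.7%. H3K4me1 replicate 1 was cut into 12 peaks there and replicate 2 into 3. The 2 breaks of replicate 2, centred at -7.48 and 7.34 kb from the middle, each had a counterpart in replicate 1, at -7.50 and 7.38 kb. The next member, on chromosome 8 from 126282292 to 126299197 (16906 bp), was the sparsest of the 5 widest, with H3K4me1 over 59.4 and 76.0% of its length. The chromosome 8 member from 134266429 to 134282772 (16344 bp) had 94.1 and 97.8%, and lay in a domain of 15 H3K27ac regions, each at most 12500 bp from the next. On chromosome 11, the member from 114033943 to 114050023 (16081 bp) had 89.6 and 93.2%. Here H3K27ac replicate 2, H3K4me1 replicate 1 and H3K4me1 replicate 2 all broke at nearly the same place, at 2.56, 2.65 and 2.60 kb from the middle, where H3K27ac replicate 1 ran on. The other breaks of H3K27ac replicate 2 in the 5 widest members were less shared. Those at -3.22 kb in the widest member and at 3.25 kb in the chromosome 8 member of 16344 bp had no H3K4me1 break there in either library. The break at -0.55 kb in the chromosome 8 member of 16906 bp lay in a break of H3K4me1 replicate 1 and not of replicate 2. H3K27ac replicate 1 broke at -3.96 kb in the widest member, at -7.93 kb in that of 16906 bp and at 6.26 kb in that of 16344 bp. None of these breaks had its middle in a break between H3K4me1 peaks inside the member. At -7.93 kb, however, neither H3K4me1 library had a peak, since their first peaks in that member start further in. The break at -3.96 kb partly overlapped a break of H3K4me1 replicate 1. Both H3K4me1 libraries ran on only at 6.26 kb. In the fifth widest member, on chromosome 11 from 34650058 to 34665496 (15439 bp), H3K4me1 covered 66.4 and 82.7%.

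**Figure D3:**
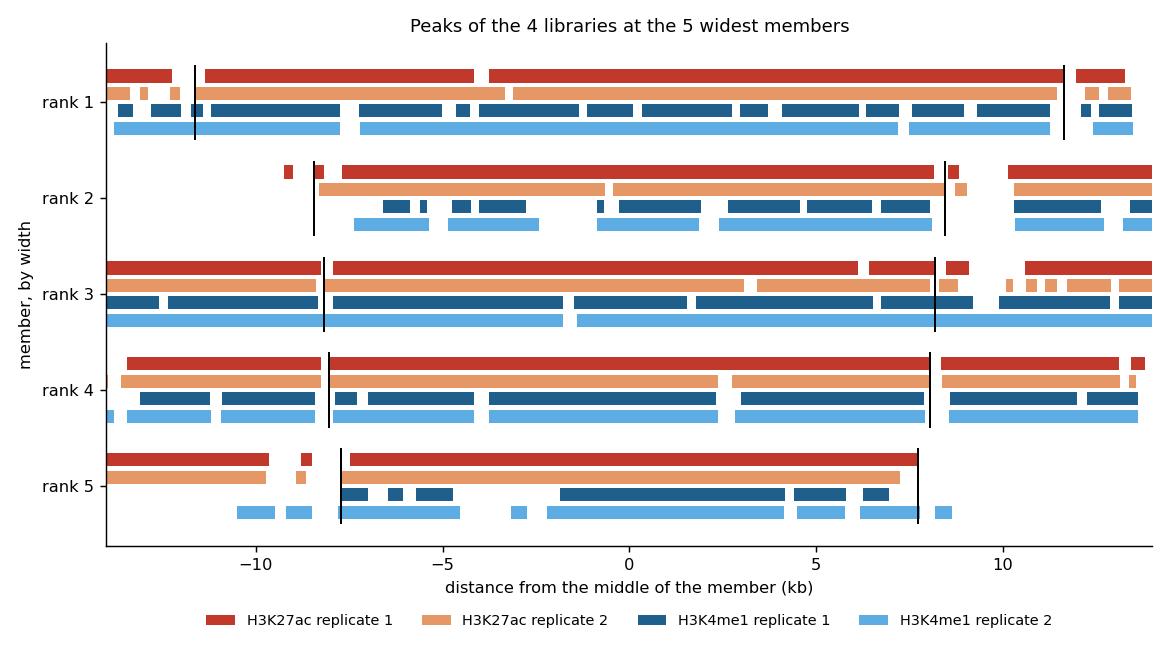
Peaks of the 4 libraries at the 5 widest members, drawn to scale by distance from the member's middle, with vertical bars at the member's ends. H3K27ac forms 1 or 2 peaks in each library, while H3K4me1 replicate 1 is cut into 4 to 12 peaks and replicate 2 into 2 to 5.

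Members on the widest H3K4me1 regions were not themselves always wide. The widest H3K4me1 region under a member's middle (20846 bp, chromosome 20) held a member of only 2151 bp, from 56259954 to 56262104, which was fully covered in both H3K4me1 libraries. The next, of 19636 bp on chromosome 8, held the middle and right side of the member from 134266429. It also held the whole of a second member of 4086 bp, from 134285200 to 134289285. H3K4me1 covered 88.4 and 100% of the second in replicates 1 and 2. A region of 18226 bp beside it held the left part of the member from 134266429. It also held the middle and 96.8% of the length of the member from 134254215 to 134266358 (12144 bp, 94.2 and 97.8% in replicates 1 and 2). The fifth such member, on chromosome 11 from 113989886 to 113996697 (6812 bp), lay on 16670 bp of H3K4me1, with 92.7 and 100% covered.

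At the other extreme, some members met the rule through short H3K4me1 pieces at the tested bases. On chromosome 16, H3K4me1 covered 19.5% of the region from 80907438 to 80912458 (5021 bp) in replicate 1 and 44.2% in replicate 2. That on chromosome 20 from 62609386 to 62614110 (4725 bp) had 42.4 and 41.8%. A region of chromosome 12 (102000367 to 102003259) had 38.8 and 48.3%, another of chromosome 13 (43433345 to 43436447) had 30.2 and 53.3%, and 1 more of chromosome 1 (84871628 to 84878600) had 41.9 and 57.7%. Such members were few: kept H3K4me1 covered under 75% of the length in 218 members (3.77%). The 3 members nearest the median width were more fully covered. In replicates 1 and 2, H3K4me1 covered 83.8 and 84.3% of the first (chromosome 3, 163641730 to 163644007). It covered 86.5 and 100% of the second (chromosome 5, 95448317 to 95450593) and 87.8 and 100% of the third (chromosome 8, 74401526 to 74403802).

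Outside their ends, members had more H3K4me1 around them than 3 other classes of wide region in each library. The remaining 1460 wide regions, with H3K4me1 at the middle and at most 1 outer base, were not measured here. The margin over regions with H3K4me1 on both sides was smaller than the difference between libraries. At 2 kb outward, an H3K4me1 peak was present at 11.3% of member ends in replicate 1 and 16.1% in replicate 2. Regions with H3K4me1 on both sides averaged 10.3% there (SD 3.08, n = 2), against 13.7% for members (SD 3.43, n = 2). Those with it on 1 side had 6.71 and 9.85%, and those with it at none of the bases 4.18 and 7.14%. The difference between members and regions with H3K4me1 on both sides was 3.12 points in replicate 1 and 3.61 in replicate 2 at 2 kb, and 2.26 and 2.76 points at 20 kb. At 1, 2, 5, 10 and 20 kb the exact two-sided permutation test over libraries gave p = 0.667 (adjusted 0.667 over 5 tests, n = 2 each), where the smallest p that 2 values against 2 can give is 0.333. Both classes were measured in the same 2 libraries, whose lists also define the classes, and the test does not use that pairing, so it cannot decide the difference. The direction was the same in both libraries at all 5 distances. It was not particular to H3K4me1: at 2 kb an H3K27ac peak was present at 10.2 and 9.32% of member ends in replicates 1 and 2. For regions with H3K4me1 on both sides the H3K27ac values were 7.80 and 6.86%.

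**Figure D4:**
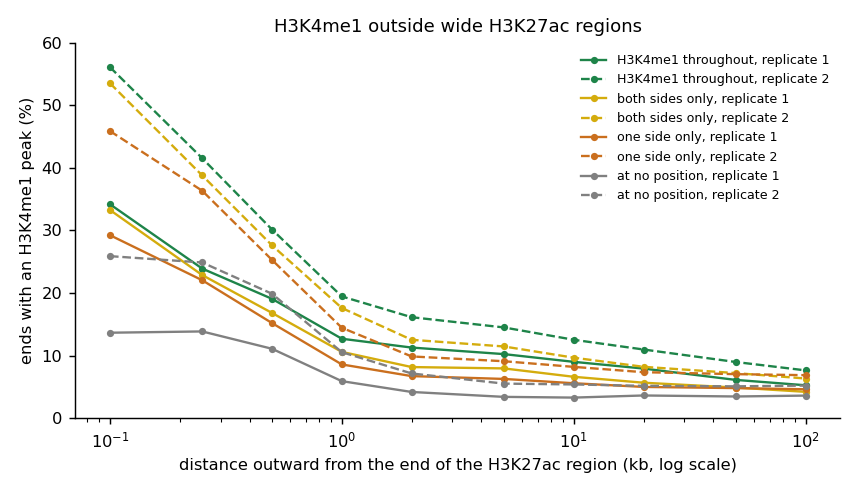
Percentage of ends of wide H3K27ac regions with an H3K4me1 peak at a given distance outward (kb, log scale), by class of region and H3K4me1 library (solid lines replicate 1, dashed lines replicate 2). Members are the highest line among the 4 classes drawn within each library at each distance, and the lines of replicate 2 lie above those of replicate 1 for the same class.

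Most members had a close H3K27ac neighbour. Another kept H3K27ac region lay within 12500 bp of 71.4% of members, against 64.4% of regions with H3K4me1 on both sides, 60.7% with it on 1 side and 46.9% with it at none of the bases. The remaining wide regions, 1460 with H3K4me1 at the middle and at most 1 outer base, had 72.4%, slightly above members. Over all wide regions the share was 61.3%, and over all kept H3K27ac regions 64.6%. The median distance to the nearest H3K27ac region was 5325 bp for members and 7144, 8259, 13922 and 4929 bp for the other classes in the same order. Neighbour shares for members were higher with either H3K27ac library alone, at 83.0% with replicate 2 and 75.6% with replicate 1. Single lists are not merged, so peaks that merging would join count there as neighbours. The other classes were not computed in that way. In domains joining such neighbours and hold at least 20 kb of H3K27ac lay 290 members (5.01%), against 7.67% of the remaining wide regions just named and 3.46% of all wide regions.

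Neighbours of members were often members too. Of 2721 wide neighbours within 12500 bp of a member, 1384 (50.9%) were members. Members were 29.8% of all wide regions, 31.6% of those on the same chromosomes and 34.5% of those in the same 10 Mb windows. These background shares include wide regions with no close wide neighbour. Members were also 35.3% of the wide neighbours of regions with H3K4me1 on both sides (363 of 1027). Beside regions with it on 1 side they were 29.7%, and beside those with it at none of the bases 22.5%. Regions with H3K4me1 on both sides had neighbours of their own class in 22.4% of cases, against 13.1% of all wide regions, 13.2% on the same chromosomes and 15.1% in the same windows. For those with it on 1 side the share was 25.5%, against 20.6% of all wide regions, 21.6% on the same chromosomes and 23.9% in the same windows. For regions with H3K4me1 at none of the bases the share was 33.9%. They were 29.0% of all wide regions, 31.3% on the same chromosomes and 33.9% in the same windows. They were 10.4% of the wide neighbours of members. Beside regions with H3K4me1 on both sides and on 1 side they were 13.2 and 20.1%. This class had a close H3K27ac neighbour least often (46.9%), so shares over all wide regions are no measure of its share among neighbours. With H3K4me1 replicate 1 alone, 32.3% of wide neighbours of members were members, against 16.4% of all wide regions, and with replicate 2 alone 49.5%, against 28.9%. In all, 1887 members (32.6%) shared a domain with another member.

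The domain with the most members lay on chromosome 4 from 169920616 to 170124205. It held 12 members among 18 wide and 36 kept H3K27ac regions, and H3K4me1 covered 28.8 and 43.3% of its span in replicates 1 and 2. Next came the chromosome 11 domain from 113959250 to 114080689, where 9 of 10 wide regions were members and H3K4me1 covered 56.0 and 65.7%. The third, on chromosome 17 from 48980323 to 49056318, had 8 members among 11 wide regions and H3K4me1 over 31.6 and 40.4%. How often H3K4me1 ran on between H3K27ac regions of a domain depended on their distance. A single H3K4me1 region spanned 53.5% of the 819 intervals under 500 bp beside a member, 42.1% of the 299 from 500 to 1000 bp, 88 of the 575 from 1000 to 2000 bp (15.3%) and 1.39% of the 1226 from 2000 to 5000 bp. Beside regions with H3K4me1 on both sides it spanned 58.0% of 238, 32.0% of 128, 48 of 240 and 0.984% of 508. The value was higher beside members from 500 to 1000 bp and lower under 500 bp and from 1000 to 2000 bp, and from 2000 to 5000 bp it rested on 17 and 5 intervals.

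The share of wide regions that were members differed between chromosomes. It was 53.2% on chromosome 21 (177 of 333, exact 95% interval 47.6 to 58.6%), 39.1% on chromosome 8 and 38.2% on chromosome 20. The lowest shares were 9.02% on chromosome X (36 of 399, 6.40 to 12.3%), 11.8% on chromosome 16 (61 of 518) and 17.7% on chromosome 19 (157 of 886). The intervals cover counting error only and treat regions as independent, although members often lay near each other. The median over 23 chromosomes was 30.4%. With H3K4me1 replicate 1 alone, chromosomes 21, X and 16 had 33.6, 5.76 and 4.05%, and with replicate 2 alone 51.1, 9.27 and 11.8%. Chromosome 21 was highest and chromosomes X and 16 were lowest in both, in reversed order between themselves. The density of H3K4me1 moved with these shares at the low end: kept H3K4me1 regions per kept H3K27ac region were 0.961 on X, 1.12 on 16 and 1.09 on 19, against a median of 1.88. The value was 2.00 on chromosome 21, and the part of this density in the shares was not tested.

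**Figure D5:**
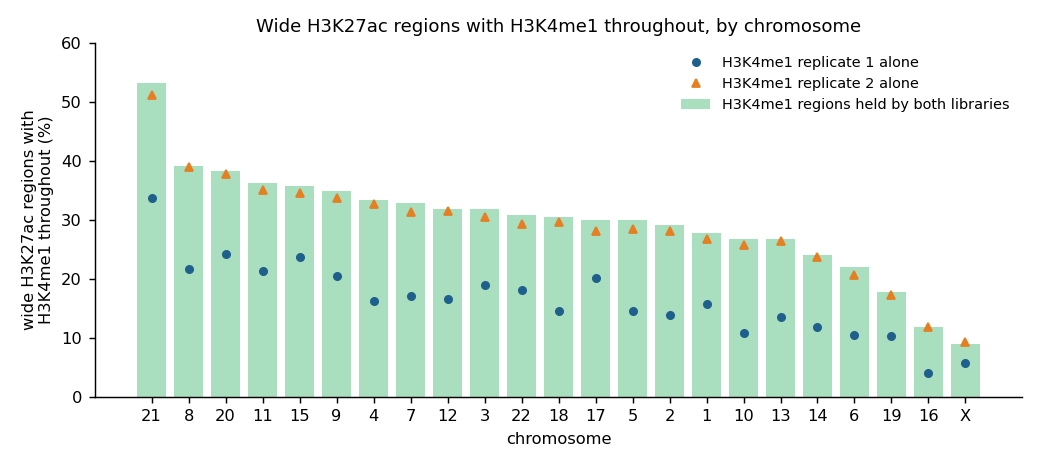
Percentage of wide H3K27ac regions that are members on each chromosome (bars), with the value from H3K4me1 replicate 1 alone (circles) and from replicate 2 alone (triangles). Chromosome 21 stands at 53.2% and chromosome X at 9.02%; replicate 1 alone lies below the bars throughout.

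Regions with H3K4me1 on both sides were spread more evenly, from 9.48 to 16.0% of wide regions over chromosomes. Members per such region thus ranged from 0.878 on chromosome X and 1.05 on chromosome 16 to 4.66 on chromosome 21, around a median of 2.19. Member width varied little, with chromosome medians from 2151 to 2449 bp. Within members, the median H3K4me1 coverage ranged from 90.6 to 100% over chromosomes, lowest on X.

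Along chromosomes, 280 windows of 10 Mb with at least 20 wide regions had member shares from 0 to 68.3%, with a median of 29.3%. The highest was the window from 130 to 140 Mb of chromosome 8, with 43 of 63 (46.0 and 71.4% with H3K4me1 replicates 1 and 2 alone). It was followed by chromosome 15 from 100 to 110 Mb (12 of 20) and chromosome 21 from 40 to 50 Mb (82 of 138). No member lay in 4 windows. By counting error this allows shares of up to 9.68 to 14.3%, if regions were independent and the windows were not picked as extremes. They lay on chromosome 16 from 30 to 40 Mb (31 wide regions), chromosome X from 70 to 80 Mb (31), chromosome 13 from 70 to 80 Mb (27) and chromosome 6 from 120 to 130 Mb (21). H3K4me1 was scarce in the chromosome 16 window, with 39 kept regions against 85 of H3K27ac. On chromosome 6 the window had 128 kept H3K4me1 regions and 56 of H3K27ac, a ratio of 2.29 that is above the chromosome median of 1.88. Of its 21 wide regions, 5 had H3K4me1 on both sides, 7 on 1 side and 9 at none of the bases. These windows are named because they are the extremes.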

How the data were processed

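ChIP-seq peak lists of 4 immunoprecipitated VCaP libraries were used, and the input library had no list here. Per the submitters' processing notes, bcl2fastq 2.17, Trimmomatic 0.33, Bowtie 1.1.2, MACS2 2.1.0 and build hg19 (GRCh37) were involved. Which tool did which step, with which threshold or control, is not given in the sources used here. For each library the authors deposited 1 list with chromosome, start, end and name, so values are positions in bp, without height or significance, and precision by depth cannot be given. Each list has its own smallest width and break, which sets how often a mark is cut. Merging, coverage and counts were computed with Python 3.11.15, NumPy 2.4.6, pandas 2.3.3 and SciPy 1.17.1, and the rule was checked on simulated lists. Positions count from 1. Overlaps of 1 bp merged peaks. Named are the 5 widest members, the 5 with their middle on the widest H3K4me1 regions and the 5 with least H3K4me1. Also named are the 3 nearest the median width, the regions at the width limit and the 3 top and bottom chromosomes. The 3 domains with most members are named too, as are extreme windows (added after seeing values). Members and measures were chosen with earlier results of these data known. Genes and sequences were not assigned, since the annotation used here has another build. Alternatives are given at the end.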

Additional observations from a re-analysis of the deposited data

How the results depend on the processing

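Over 11 results and 98 alternatives, of which 91 were planned and 7 chosen after seeing the data, 74 values moved by less than the spread between libraries (counts by less than 1.5 times), 24 moved further and 0 reversed. For most results that spread came from the same runs that it judges. For split members it was the SD over libraries of both marks (28.6 points), while alternatives gave 23.9 to 51.2%. For breaks it was the SD between the break results themselves (22.4 points). The count of 74 thus cannot show that the results are stable. Reversal was defined only for the differences at 1 kb and between chromosomes 21 and X. The causes were not tested beyond what an alternative changes by construction. With minimum widths of 1000, 2000 and 3000 bp there were 8935, 3726 and 1601 members with median widths of 1785, 2811 and 3869 bp, and at 3000 bp 78.0% had a neighbour within 12500 bp. Asking for 1 H3K4me1 region at all 3 bases left 19.99% of wide regions and a median width of 2053 bp. A joining distance of 5 kb left 48.4% of members with a neighbour, and the union of peaks gave 78.4%. Leaving out each library in turn gave 3174 to 5595 members, shares of 16.4 to 29.5%, median widths of 2215 to 2357 bp and H3K4me1 coverages of 86.1 to 99.2%. It also gave 71.5 to 83.0% with a neighbour, 32.3 to 52.7% of wide neighbours being members, and 25.8 to 37.4% of members split. For the next results only the H3K4me1 libraries were left out in turn, which gave differences of 2.81 to 3.24 points at 1 kb (1.98 with all libraries) and of 27.9 to 41.8 points between chromosomes 21 and X. A replicate block, which pairs same-numbered libraries, gave 3516 members, a share of 21.7% and 80.1% with a neighbour. Deviations of same-numbered libraries did not go together (r = -0.0607 over 22974 windows of 100 kb), so the numbers are not shown to pair them. Read depth is unknown and limits which breaks and overhangs can be seen.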
